A study of Mus musculus with 10 samples.

Results

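The genes described here encode mouse proteins that block retroviruses, or close relatives of such proteins: Trim12a, Trim12c, Trim30a, Trim30b, Trim30c, Trim30d, Trim34a, Apobec3 and Samhd1. They were looked up by symbol among probe sets that name 1 gene, and a gene with several such probe sets was represented by the brightest on average. Of these 9 members 7 were measured, out of 19938 genes in all. Trim30b had only a probe set shared with a second gene, and no probe set was listed for Trim30c, so the level of neither is given as a gene. The members were chosen by the NOD and B10 intensities of some of them in these same arrays. The strain difference is therefore given as a description, with no test. The difference between the strains in their response is the strain difference at T1 minus that at T0, so for the members it is a description too. The response to stimulation within each strain was tested, but on the same arrays that entered the choice. To the extent that high B10 and low NOD values at T0 entered it, the choice favours falls in B10 over falls in NOD.

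CD4-positive cells had been enriched with magnetic beads from spleens of female mice aged 8 weeks, and their RNA was hybridised to Affymetrix arrays. The groups were NOD cells after 4 hours with PMA (10 ng/ml) and ionomycin (1 uM), called T1 (2 arrays), unstimulated NOD cells, called T0 (3 arrays), B10 cells at T1 (2 arrays) and B10 cells at T0 (3 arrays). The labels give the genotypes as NODk and B10Br, called NOD and B10 here. NOD mice are known for autoimmune diabetes, but the labels do not say whether NODk mice develop it. PMA activates protein kinase C and ionomycin raises calcium in the cell, which together imitate signalling from the T cell receptor. The labels call the replicates biological without naming animals, so p-values measure the spread between these arrays. It is unclear from the protocol whether T0 cells were also cultured for 4 hours. Replicate 1 at T1 is not analysed here in either strain.

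Values are log2 intensities that the authors made with RMA, so 1 unit is a 2-fold step, and array medians lay between 6.18 and 6.23. CD4 T cell markers were bright on every array: the mean of 7 measured markers was 9.60 to 9.82 in NOD at T1, 10.45 to 10.58 in NOD at T0, 9.80 to 9.86 in B10 at T1 and 10.66 to 10.68 in B10 at T0. Other cell types were present in the RNA. The mean of 9 monocyte and macrophage markers was 6.71 to 6.89 in NOD at T1, 8.12 to 8.30 in NOD at T0, 6.35 to 6.51 in B10 at T1 and 7.37 to 7.77 in B10 at T0. The mean of 8 B cell markers was 7.0 to 7.07 in NOD at T1, 8.47 to 8.76 in NOD at T0, 7.20 to 7.28 in B10 at T1 and 8.31 to 8.55 in B10 at T0. For 5 erythroid markers the mean was 10.43 to 10.82 in NOD at T1, 10.23 to 10.82 in NOD at T0, 7.52 to 9.54 in B10 at T1 and 6.97 to 9.41 in B10 at T0. In such bulk samples, fewer cells of a type and less RNA per cell cannot be told apart.

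Retroviruses copy their RNA genome into DNA after entry, and restriction factors interrupt this cycle inside the cell. Tripartite motif (TRIM) proteins of the Trim5 family, known best from the primate TRIM5 protein, recognise the incoming capsid, and in mice the family has expanded into a cluster that holds the Trim12, Trim30 and Trim34 genes. APOBEC3 is packaged into virus particles and limits the new DNA, in part by deaminating cytidines, and in mice its gene corresponds to Rfv3, which governs recovery from Friend retrovirus infection. SAMHD1 degrades deoxynucleotides and so withholds the building blocks for reverse transcription. Many of these genes respond to interferon.

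Trim12a showed the widest gap between the strains. Its log2 intensities were 4.06 and 3.59 in NOD at T1, 4.31, 3.95 and 4.05 in NOD at T0, 7.78 and 7.73 in B10 at T1, and 9.64, 9.96 and 9.65 in B10 at T0. No NOD array came near any B10 array. NOD minus B10 was -3.93 at T1, a 15.2-fold lower intensity in NOD, and 1 gene of the 19938 had a lower difference. At T0 the difference was -5.65, or 50.1-fold lower in NOD, and 0 genes had a lower one. In NOD the Trim12a value lay low on the scale, since 6.09% of all gene means at T1 and 10.3% at T0 were below it, against 74.1% in B10 at T1 and 93.7% in B10 at T0. Detection calls were not used here, so a fold against a value this low may be understated. Whether the probes of Trim12a or of the other members match the NOD sequence was not checked. The folds between strains therefore describe intensity on the array.

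Apobec3 differed in the same direction. It had 6.11 and 5.84 in NOD at T1, 6.78, 6.49 and 6.79 in NOD at T0, 7.23 and 7.26 in B10 at T1, and 9.12, 8.98 and 8.73 in B10 at T0. All NOD arrays were below all B10 arrays, and stimulated B10 cells still had higher values than unstimulated NOD cells. The difference was -1.27 at T1 (2.41-fold lower in NOD, with 46 genes lower) and -2.26 at T0 (4.79-fold lower in NOD, with 11 genes lower). A second probe set of Apobec3 gave 6.90 and 7.18 in NOD at T1, 6.46, 7.13 and 6.95 in NOD at T0, 6.89 and 6.77 in B10 at T1, and 8.12, 8.08 and 8.04 in B10 at T0. With it the strains differed by 0.21 at T1 and by -1.24 at T0. The platform annotation lists curated RefSeq transcripts for the first probe set and only cDNA clones for the second.

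**Figure D1:**
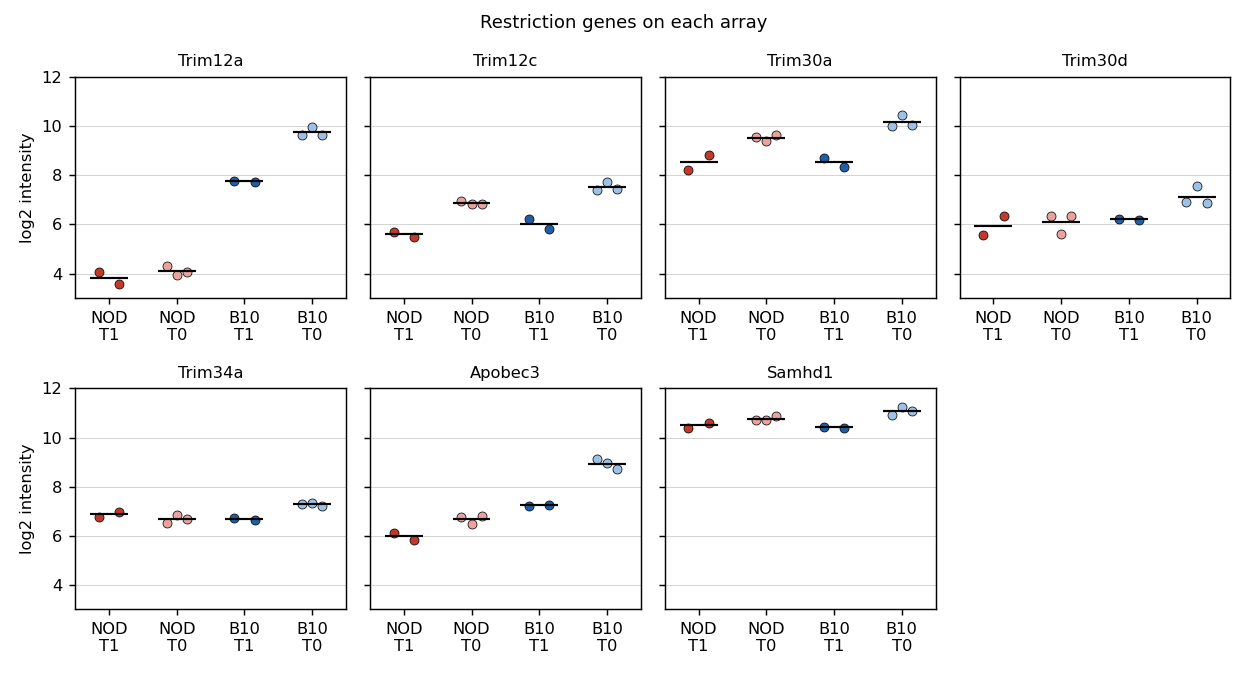
Log2 intensity (y axis) of the 7 measured members on each array, by strain and state (x axis); points are arrays and lines are group means. Trim12a lies between 3.59 and 4.31 on NOD arrays and between 7.73 and 9.96 on B10 arrays.

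The near copy Trim12c, whose product has been linked to interferon and NF-kB signalling, differed far less. It had 5.71 and 5.50 in NOD at T1, 6.97, 6.83 and 6.85 in NOD at T0, 6.24 and 5.82 in B10 at T1, and 7.41, 7.71 and 7.45 in B10 at T0. The NOD arrays were again below the B10 arrays within each state, with differences of -0.43 at T1 and -0.64 at T0. The difference at T1 was -0.21 without B10 T1 replicate 2 and -0.64 without B10 T1 replicate 3. Part of the neighbouring sequence is measured by probe sets that name several genes of the cluster. The probe set that names Trim12a, Trim12c and Trim5 together had 5.91 and 6.0 in NOD at T1, 7.12, 6.94 and 7.10 in NOD at T0, 7.09 and 7.09 in B10 at T1, and 9.11, 9.11 and 9.04 in B10 at T0. Its differences were -1.13 at T1 and -2.03 at T0, and those of the probe set for Trim12c and Trim5 alone were -0.90 and -1.26. Signal of 1 gene cannot be separated from that of its copies in these shared probe sets.

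**Figure D2:**
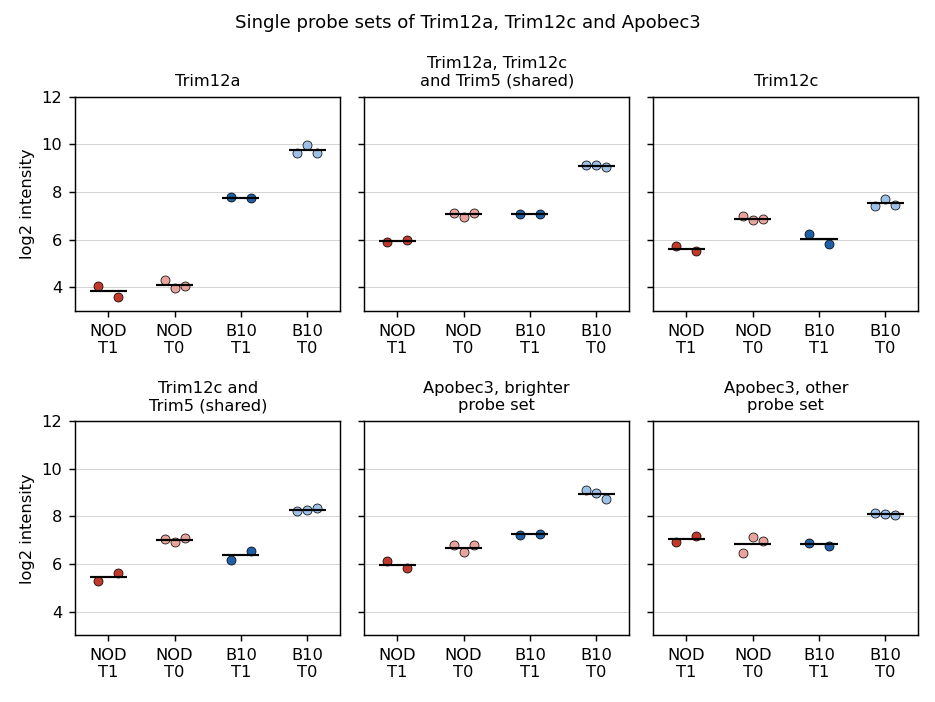
Log2 intensity (y axis) on each array for 6 probe sets of Trim12a, Trim12c, Trim5 and Apobec3, by strain and state (x axis); points are arrays and lines are group means. The shared probe sets show NOD below B10 within each state, and the second Apobec3 probe set does so at T0, while at T1 its NOD values of 6.90 and 7.18 lie above 6.89 and 6.77 in B10.

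Trim30a, Trim30d, Trim34a and Samhd1 had differences of -1.01 to -0.32 at T0, all without overlap of the strains, and of -0.26 to 0.20 at T1. Trim30a, a brake on NF-kB signalling downstream of Toll-like receptors, had 8.23 and 8.82 in NOD at T1, 9.55, 9.40 and 9.64 in NOD at T0, 8.72 and 8.34 in B10 at T1, and 10.00, 10.47 and 10.03 in B10 at T0. The strains overlapped at T1 (difference -0.01) and not at T0 (-0.63). Trim30d, a paralogue of Trim30a, had 5.58 and 6.33 in NOD at T1, 6.35, 5.63 and 6.35 in NOD at T0, 6.23 and 6.20 in B10 at T1, and 6.92, 7.57 and 6.88 in B10 at T0. Its differences were -0.26 at T1, with overlap, and -1.01 at T0, without. Trim34a, another interferon-responsive member of the cluster, had 6.78 and 6.97 in NOD at T1, 6.50, 6.86 and 6.70 in NOD at T0, 6.73 and 6.63 in B10 at T1, and 7.30, 7.32 and 7.23 in B10 at T0. Its difference was 0.20 at T1 and -0.60 at T0, without overlap in either state. Samhd1 had 10.41 and 10.58 in NOD at T1, 10.71, 10.73 and 10.86 in NOD at T0, 10.43 and 10.41 in B10 at T1, and 10.94, 11.24 and 11.07 in B10 at T0. Its values overlapped at T1 (0.07) and not at T0 (-0.32). Omission of NOD T1 replicate 2 turned the T1 difference of Trim30a to 0.29 and that of Trim30d to 0.11, and omission of NOD T1 replicate 3 gave -0.30 and -0.63.

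At T1 all NOD arrays were thus below all B10 arrays for 3 of the 7 measured members (Trim12a, Trim12c and Apobec3), a pattern of 20.2% of all genes. Trim34a showed the opposite pattern, as did 21.6% of all genes. At T0 all NOD arrays were below all B10 arrays for 7 of 7, where 11.7% of all genes showed that pattern and 11.1% its opposite. The median difference over the 7 members was -0.26 at T1 and -0.64 at T0, beside 0.009 and -0.015 over all genes. Without replicate 2 of NOD at T1 the median at T1 was 0.11. These counts describe the choice of the members and support nothing beyond it. The erythroid means given above moved with strain in the other direction, and monocyte and macrophage markers had 5 of 9 genes higher in NOD at T0 (limma adjusted p under 0.05). The means of some other lists were lower in NOD at T0, as the members were, though few of their genes passed. The mean of 7 NK cell markers was 5.53 to 5.63 in NOD and 5.80 to 5.97 in B10, with 2 of 7 lower in NOD, and that of 2 CD8 T cell markers was 6.85 to 6.98 in NOD and 7.13 to 7.35 in B10, with 1 of 2 lower. The mean of 7 plasmacytoid dendritic cell markers was 8.01 to 8.12 in NOD and 8.19 to 8.26 in B10, with 1 of 7 higher and 1 of 7 lower in NOD. The median difference at T0 over the NK cell markers was -0.06, so few of them carried the lower mean. Over the plasmacytoid dendritic cell markers it was -0.17. The part of these cell types in the strain differences was not tested.

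On stimulation with PMA and ionomycin all 7 measured members fell in B10 cells, and 3 of them fell in NOD cells. The comparison asks whether activation of the cells changed these genes within a strain, and it was tested with limma across all genes. Because the arrays also entered the choice of the members, their p-values and counts are not independent of that choice. In NOD, 35.5% of all genes passed, with 19.5% lower and 16.1% higher at T1. In B10, 31.8% passed, with 18.1% lower and 13.7% higher. The median change of the 7 members was -0.28 in NOD and -1.49 in B10, beside 0.081 and 0.031 over all genes. When each array was shifted to the same 75th percentile, the medians over all genes became 0.262 and 0.164, and 7455 genes rose and 2934 fell in NOD, against 3201 and 3884 as deposited, so directions are relative to the scaling. With that scaling 3 members still fell in NOD and 7 in B10.

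Trim12a fell 3.99-fold in B10 (log2 change -2.0 ± 0.15, limma's standard error, adjusted p = 4.99e-07). In NOD its change was -0.28 ± 0.15 (limma adjusted p = 0.181), at values already low on the scale. Without replicate 2 of NOD at T1 that change was -0.51 and passed (limma adjusted p = 0.0338). Trim12c fell in both strains, by -1.28 ± 0.14 in NOD (limma adjusted p = 9.29e-06) and -1.49 ± 0.14 in B10 (limma adjusted p = 2.38e-06). The probe set shared by Trim12a, Trim12c and Trim5 fell by -1.10 in NOD and -2.0 in B10. That shared by Trim12c and Trim5 fell by -1.57 and -1.92, and all 4 of these falls passed the threshold when every probe set of the table was tested.

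Trim30a fell in both strains, 2.01-fold in NOD (-1.01 ± 0.19, limma adjusted p = 0.000837) and 3.11-fold in B10 (-1.64 ± 0.19, limma adjusted p = 1.47e-05). Trim30d fell in B10 (-0.91 ± 0.26, limma adjusted p = 0.0173), and its change in NOD was -0.16 ± 0.26 (limma adjusted p = 0.674). The fall of Trim30d in B10 no longer passed without B10 T1 replicate 2 (-0.93, limma adjusted p = 0.0708), B10 T1 replicate 3 (-0.89, 0.0825) or B10 T0 replicate 2 (-0.69, 0.0629), nor when every probe set was tested (0.0517) or eBayes was run with trend and robust settings (0.0543). The probe set shared by Trim30b and Gm38525 changed by -0.27 in NOD, which did not pass, and fell by -0.48 in B10. Trim34a fell in B10 (-0.60 ± 0.12, limma adjusted p = 0.00115). In NOD it had a change of 0.19 ± 0.12 (limma adjusted p = 0.231), which passed as a rise of 0.37 when arrays were shifted to the same 75th percentile (limma adjusted p = 0.0424).

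Apobec3 fell 1.64-fold in NOD (-0.71 ± 0.14, limma adjusted p = 0.00121) and 3.24-fold in B10 (-1.70 ± 0.14, limma adjusted p = 7.76e-07). Its second probe set fell in B10 (-1.25) and had a change of 0.20 in NOD (limma adjusted p = 0.454 over every probe set). With the mean of both probe sets the change in NOD was -0.26 and did not pass (limma adjusted p = 0.0799), so the fall of Apobec3 in NOD rests on the first probe set. Samhd1 fell 1.58-fold in B10 (-0.66 ± 0.11, limma adjusted p = 0.000376). Its change in NOD was -0.27 ± 0.11 (limma adjusted p = 0.0725), which passed among the brighter genes only (limma adjusted p = 0.042) and with trend and robust settings (limma adjusted p = 0.0271).

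**Figure D3:**
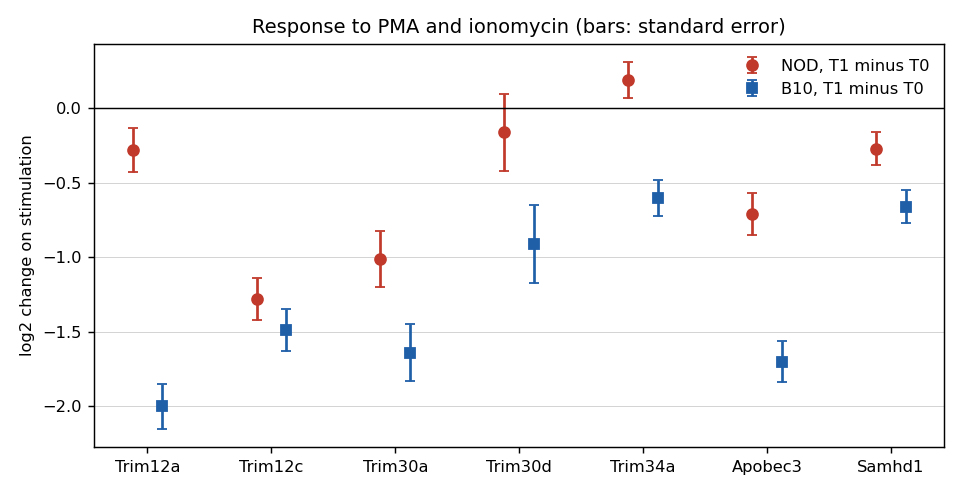
Log2 change on stimulation, T1 minus T0 (y axis), for the 7 measured members (x axis) in NOD (circles) and B10 (squares); bars are limma's standard errors. All B10 changes lie between -2.0 and -0.60, and NOD changes between -1.28 and 0.19.

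Markers of several cell types, though not of all, fell in the same arrays. Of 9 monocyte and macrophage markers 8 fell in NOD and 8 in B10, with medians of -1.53 and -1.11. Of 8 B cell markers 7 fell in NOD and 5 in B10 (medians -1.03 and -1.10), and of 7 CD4 T cell markers 4 fell in NOD and 5 in B10 (medians -0.95 and -0.98). Their part in the falls of the members was not tested.

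NOD response minus B10 response was positive for all 7 measured members. These values are built from the strain differences described above, so nothing is read from them as a test. For Trim12a the value was 1.72. The low NOD signal may limit it. The NOD mean at T0 was 4.10, and the lowest value of any probe set on any array was 2.11. The fall in B10 was 2.0, so a fall of that size in NOD would reach the bottom of the scale. Whether the low NOD signal gave the 1.72 was not tested. Whether the response of Trim12a differs between the strains cannot be told from this probe set. The probe set shared by Trim12a, Trim12c and Trim5 gave 0.90, and its signal in NOD may come from any of the 3 genes. Apobec3 had 0.99, or 1.22 with the mean of its probe sets, Trim34a 0.79, Trim30d 0.75, Trim30a 0.63, Samhd1 0.39 and Trim12c 0.21. Of all genes, 0.246% passed in this contrast (limma adjusted p under 0.05), 0.0953% above and 0.15% below 0. A fall that passed in B10 and not in NOD is not shown to differ between the strains for Trim12a, Trim30d, Trim34a or Samhd1.

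Because several members fell together, their promoters in the C57BL/6J reference were searched for 3 motifs on both strands, with RefSeq sequences of GRCm38.p6 that run from 250 bases before to 50 after each annotated start. The core of the interferon-stimulated response element, here GAAA, any 2 bases and a second GAAA, was found in 7 of 11 promoters of the members, and in at least 1 promoter of 6 of the 7 measured genes, all but Samhd1. Of 32851 mouse promoters 3.44% held it. The gamma-activated site TTCNNNGAA was found in 2 of the 11 (8.30% of all) and the AP-1 motif TGANTCA in 2 of the 11 (7.81% of all). Some promoters of the cluster are near copies of each other, so the promoters do not count as independent. Trim12a and Trim12c were identical at 94.6% of 261 aligned positions, and Trim30a and Trim30d at 93.9% of 294. Trim12a and Trim30a were less alike, identical at 68.6% of 70 aligned positions. The sequences below show the match for each measured gene that holds one, on the strand of the gene, with the match in capitals. The capitals begin with TTTC because the motif lies on the opposite strand. Trim30a has a second promoter that also holds a match, not printed. Apobec3 has 2 annotated promoters, and the match is in the upstream one alone.
Trim12a, chr7:104315466-104315525, minus strand: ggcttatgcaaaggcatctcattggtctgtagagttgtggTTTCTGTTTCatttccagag
Trim12c, chr7:104353344-104353403, minus strand: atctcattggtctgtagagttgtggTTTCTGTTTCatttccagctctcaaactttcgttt
Trim30a, chr7:104465195-104465254, minus strand: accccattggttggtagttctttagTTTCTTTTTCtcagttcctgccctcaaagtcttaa
Trim30d, chr7:104507856-104507915, minus strand: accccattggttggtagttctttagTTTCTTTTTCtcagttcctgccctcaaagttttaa
Trim34a, chr7:104244427-104244486, plus strand: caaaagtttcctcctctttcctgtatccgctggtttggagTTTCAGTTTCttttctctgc
Apobec3, chr15:79892243-79892302, plus strand: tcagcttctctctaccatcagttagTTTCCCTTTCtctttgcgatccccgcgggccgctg

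The matches in Trim12a and Trim12c lie in a nearly identical stretch, although the annotated starts of both genes differ in their place relative to it. Counted from the start as base 1, with bases before it negative, the match covers 11 to 20 in Trim12a and in Trim34a, and -29 to -20 in Trim12c. It covers -36 to -27 in Trim30a, -41 to -32 in Trim30d and -140 to -131 in Apobec3. The start is that of the promoter sequence used. For some genes, Trim12a and Apobec3 among them, it lies inside the RefSeq bounds of the gene. Positions counted from those bounds would differ. A match of these letters does not show that a factor binds there, and the NOD sequence was not used.

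Genes beside the members did not show the wide strain gaps. Beside the cluster on chromosome 7 their group means were low, from 3.52 in NOD at T0 to 6.19 in B10 at T1. A lower level in NOD could hardly be seen there. The 10 measured genes on each side of the Trim34a to Trim30d stretch on chromosome 7, of which 15 of 20 encode olfactory receptors, differed between NOD and B10 by -0.25 to 0.37 at T1 and by -0.11 to 0.34 at T0. With limma 0 passed in either state, and the lowest adjusted p at T0 was 0.253, for Olfr643. This included Trim6 (0.10 at T0), a TRIM gene next to Trim34a, and the pseudogene Trim30e-ps1 (-0.11 at T0). These 3 genes were chosen for mention after their values were seen. Beside Apobec3 on chromosome 15, 0 of 20 neighbours passed at T1 and 3 were lower in NOD at T0. Of all genes, 3.6% passed at T1 (1.83% lower and 1.77% higher in NOD) and 5.79% at T0 (2.35% lower and 3.44% higher). The 3 were Cbx7, a Polycomb protein (-0.69 ± 0.11, limma adjusted p = 0.00247), D730005E14Rik (-0.50, limma adjusted p = 0.00556) and Gtpbp1, a GTP-binding protein (-0.39, limma adjusted p = 0.0349). Beside Samhd1 on chromosome 2, Dsn1, a kinetochore protein, was higher in NOD at T1 (0.79, limma adjusted p = 0.0434), and 0 of 20 passed at T0.

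**Figure D4:**
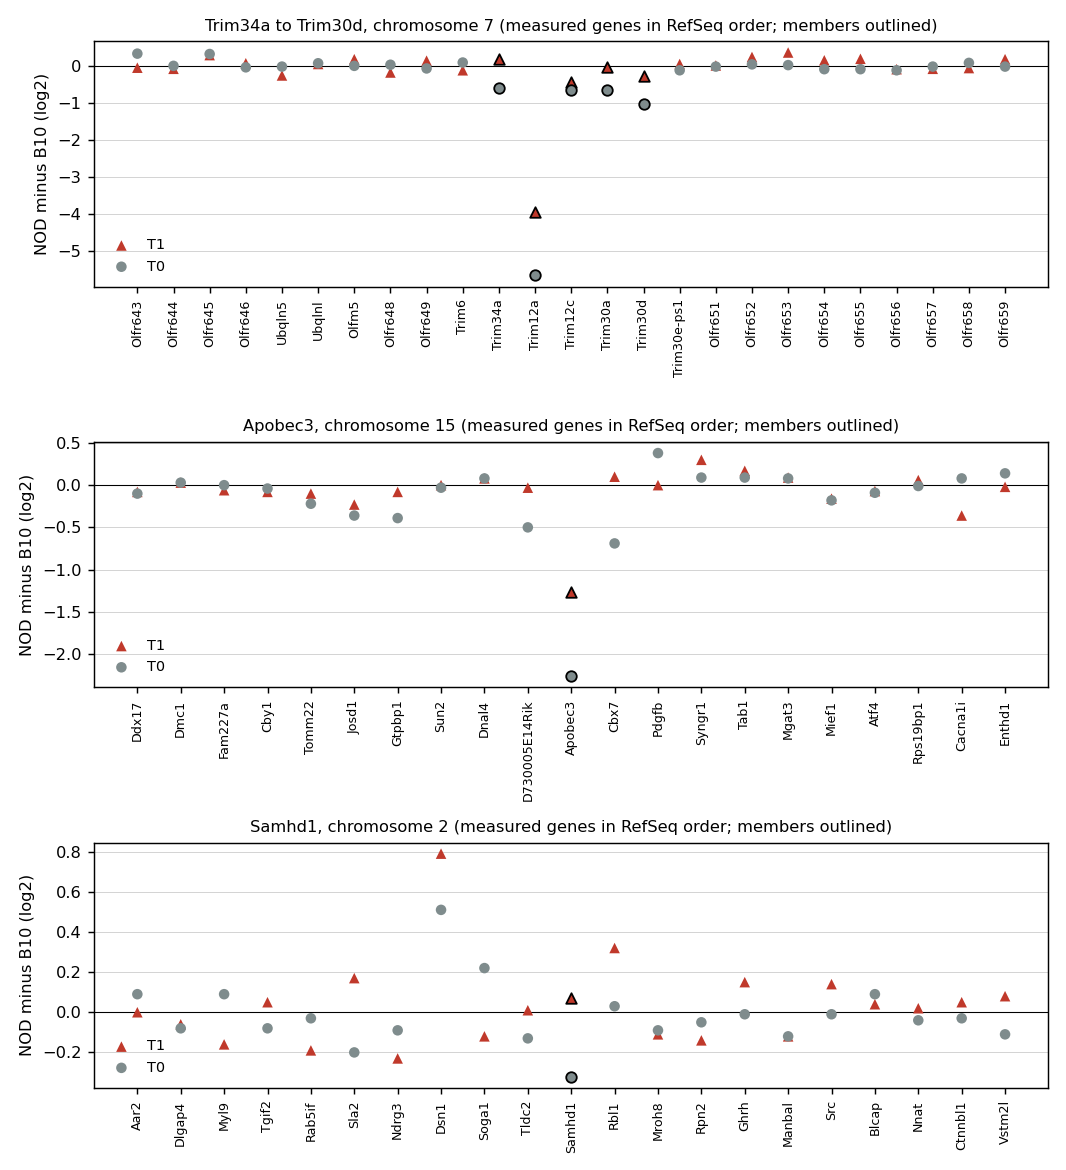
NOD minus B10 log2 difference (y axis) at T1 (triangles) and T0 (circles) for the members and the 10 measured genes on each side, in RefSeq order (x axis, not to scale in distance), in 3 panels with separate y scales. Trim12a at -5.65 and Apobec3 at -2.26 at T0 lie apart from their neighbours, which lie between -0.69 and 0.51 at T0 over the 3 panels. The neighbours on chromosome 7 had low intensities in every group.

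Other genes of retrovirus restriction moved both ways on stimulation. Of all genes, 16.1% rose and 19.5% fell in NOD, and 13.7% rose and 18.1% fell in B10. The counts of this list and of those below are descriptions to be read beside these shares. Of 25 measured genes in that list, 3 rose and 7 fell in NOD and 1 rose and 9 fell in B10 (medians -0.18 and -0.30), which became 5 and 5 in NOD and 3 and 7 in B10 with the 75th percentile scaling. Zc3hav1, which binds CpG-rich viral RNA, fell by -1.76 in NOD and -1.86 in B10, and its cofactor Khnyn by -0.90 and -1.19. Apobec1, the RNA-editing relative of Apobec3, fell by -1.65 and -1.37. Serinc3, which makes virus particles less infectious, fell by -0.65 and -1.14, and Bst2, the tetherin that holds budding particles, by -0.66 and -0.56. Gbp5, a guanylate-binding protein, rose by 3.17 in NOD and 2.48 in B10. Between strains, 4 were higher in NOD at T1 and 3 at T0, beside 1.77% and 3.44% of all genes. The ubiquitin ligase Marchf2 (1.65 at T1, 1.08 at T0) and the exonuclease Isg20 (1.63 and 1.15) were higher in both states and Marchf8 (1.76) at T0. The RNA-activated kinase Eif2ak2 (-1.02) and Trim25 (-0.45) were lower in NOD at T0. Erythroid markers were also higher in NOD at T0, and the part of erythroid cells in these differences was not tested.

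Among 53 other TRIM genes, Trim25 of the list above included, 10 rose and 12 fell in NOD and 3 rose and 15 fell in B10 (medians 0.07 and -0.02), and with the 75th percentile scaling 19 rose and 9 fell in NOD and 8 rose and 9 fell in B10. Trim14, which takes part in antiviral signalling, fell by -1.05 in NOD and -1.41 in B10, and Trim35 by -0.90 and -1.03. Trim16 rose in NOD (1.07). Between strains at T0, 6 were higher in NOD and 1 lower, which became 4 and 1 with that scaling. Trim10 (2.66) and Trim58 (0.72), both of red cell precursors, were among those higher in NOD, as were Trim59 (0.57) and Trim16 (0.50). The erythroid markers were 5 of 5 higher in NOD at T0, and their part in these differences was not tested.

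Sensors of foreign nucleic acid fell in part. Of 16 measured, 2 rose and 6 fell in NOD and 4 rose and 8 fell in B10, which became 4 and 5 in NOD and 5 and 5 in B10 with the 75th percentile scaling. Sting1, the adaptor for cytosolic DNA, fell by -2.11 in NOD and -1.94 in B10, Unc93b1, the chaperone of nucleic acid Toll-like receptors, by -2.09 and -1.94, and Ddx58, the RNA sensor RIG-I, by -1.63 and -2.08. Of 18 measured interferon pathway genes, 4 rose and 3 fell in NOD and 3 rose and 8 fell in B10, or 7 and 3 in NOD and 3 and 6 in B10 with that scaling. Ifnar1, a chain of the type I interferon receptor, fell by -1.58 in NOD and -1.80 in B10. Stat2, which carries the receptor's signal, fell in B10 (-0.95), while Usp18, a feedback inhibitor, rose in NOD (1.86). In both lists 0 genes passed for a difference in response. At T1, 4 interferon pathway genes were higher in NOD, Rsad2 (2.20), Stat2 (0.89), Irf9 (0.70) and Ifnar2 (0.48), and 0 were lower. Of all genes, 1.77% were higher and 1.83% lower in NOD at T1. At T0, 1 gene of this list was higher in NOD, Rsad2 (1.71), and 0 were lower, beside 3.44% and 2.35% of all genes.

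For SAMHD1, the surrounding biology is deoxynucleotide supply. Of 20 measured genes of this list, 3 rose and 6 fell in NOD and 5 rose and 5 fell in B10, and 5 and 4 in NOD with the 75th percentile scaling. The nucleoside diphosphate kinases Nme1 (1.70 in NOD, 1.58 in B10) and Nme2 (1.08, 1.06) rose, as did Dctd, dCMP deaminase (1.23, 1.16). The salvage kinase Dck fell by -0.99 and -1.99, and Cdk2 by -1.33 and -1.74. Of the 4 cell surface receptors that retroviruses use, Slc7a1, the receptor of ecotropic murine viruses, rose by 2.38 in NOD and 2.18 in B10 and Slc20a2 by 1.02 and 0.66, while Xpr1, the receptor of xenotropic and polytropic viruses, fell by -0.60 and -0.53. No receptor passed for a strain difference at T0 or T1, or for a difference in response.

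Over the 10 arrays, the genes most like each member were found by the root mean square difference of log2 values after each gene was centred on its own mean, for the 5 members whose group means spanned at least 1. Nearest to Trim12a was Slc15a2, a peptide transporter (1.03), followed by the efflux pump Abcb1b (1.30) and Slc28a2b (1.31), so no gene followed Trim12a closely. Slc15a2 averaged 5.44 in NOD at T1, 5.96 in NOD at T0, 7.88 in B10 at T1 and 9.34 in B10 at T0. Apobec3 was most like Nt5e, the ectoenzyme CD73 (0.33), Pdk1 (0.33) and Ifi206 (0.36). Trim12c was closest to Itgal (0.10), Hsd11b1 (0.12) and H2-T10 (0.12), Trim30a to Myl12b, Ptprcap and Hsd11b1 (0.19 each), and Trim30d to Qpct, Ldhb and Rnpep (0.28 each).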

How the data were processed

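The deposited values are log2 intensities of 35486 probe sets on 10 arrays. Per the submitters' processing notes, the authors used RMA and Affymetrix Power Tools, with versions not given in the sources used here. That the scale is log2 follows from its span of 2.11 to 14.92. The platform table gives 1 symbol for 21789 probe sets, several for 1621 and none for 12076. RefSeq (GRCm38.p6) supplied gene order and promoters and lacked 91 identifiers.

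The 4 groups were fitted together in limma 3.58.1 under R 4.3.3 (6 residual and 6.30 prior degrees of freedom, eBayes, two-sided), with Benjamini-Hochberg adjustment over all 19938 genes per contrast and calls made under 0.05. The procedure was run on simulated data with independent arrays, which does not cover arrays that share a source. Precision is limited by the number of arrays. Promoters were aligned with Biopython 1.88 and figures drawn with matplotlib 3.10.9.

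The members and lists were chosen with earlier results of these data known. All members are named. Of each other list, genes past the threshold with the largest changes, up to 5 per contrast, could be named, as could neighbours that passed and the 3 genes most like a member. Of 8 CD4 T cell, 10 monocyte and macrophage, 9 B cell and 6 erythroid markers, those with a probe set of 1 symbol were used. Alternatives were another scaling, other probe sets, brighter genes, other eBayes settings, array weights, fewer arrays, a replicate block and omission of each array.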

Additional observations from a re-analysis of the deposited data

Results flagged for a closer look

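For Trim12a the change on stimulation was -0.28 in NOD and -2.0 in B10, and NOD response minus B10 response was 1.72, past the threshold in the limma fit over all genes. Both B10 arrays at T1 (7.78 and 7.73) lay below the 3 B10 arrays at T0, while the NOD arrays at T1 (4.06 and 3.59) overlapped with those at T0 (3.95 to 4.31). The NOD arrays lie low on the scale, and whether this gave the 1.72 was not tested. The value is also built from the strain differences the members were chosen by. A difference in response and a limit from the low NOD signal cannot be told apart here, so nothing is read from the value as a test.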

How the results depend on the processing

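The counts of members that fell or rose kept to within 1.5 times under most alternatives. With arrays shifted to the same 75th percentile, 1 member rose in NOD, against 0 as deposited. Members past the threshold for NOD response minus B10 response, a value given here as a description, became 2 with the mean of a gene's probe sets and 2 with trend and robust eBayes, against 1. Omission of single arrays gave 3 to 4 members that fell in NOD, 6 to 7 in B10 and 1 to 1 for that value. The median NOD minus B10 difference of the members was -0.72 to -0.58 at T0 over omissions and -0.32 to 0.11 at T1, with the sign turned (0.11) without NOD_T1 replicate 2; the cause was not tested. Deviations of same-numbered arrays from their group means correlated by -0.014 and 0.22 in NOD and 0.41 and 0.40 in B10. These correlations do not settle whether same-numbered arrays share a source. The labels name no animals, and the main fit did not take numbers as pairs. With a replicate block, fixed or random, 3 members fell in NOD, 7 in B10 and 1 passed for that value. Over all genes, the difference in response was called for 49 genes, and for 13 to 102 under the alternatives. NOD minus B10 at T0 was called for 1155 genes, and for 571 to 2316, and at T1 for 718, and for 128 to 889. Genes that rose in B10 numbered 2729, and 4221 when all 35486 probe sets were tested. For the array-weighted fit, the scaling and the omissions the cause was not tested.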
